A study of Mus musculus with 18 samples.

Results

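Replication-independent histone variants were described through 6 genes, H3f3a, H3f3b, H2afz, H2afv, H2afx and H2afy, taken by symbol from the 14002 genes counted in any library of the series. All 6 were counted in all 18 libraries and all 6 passed edgeR's filter on low counts, which 10110 genes passed. Their reads made up 0.306% to 0.423% of footprint libraries and 0.182% to 0.301% of input libraries.

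Most histone mRNA is made in S phase from clustered, intronless genes whose transcripts end in a stem-loop in place of a poly(A) tail and are degraded when replication stops. Histone variants are instead made throughout the cell cycle from genes outside those clusters, mostly as spliced and polyadenylated mRNAs, and are placed into chromatin by dedicated chaperones outside replication. H3.3 marks active and some silent chromatin, H2A.Z sits beside promoters, H2A.X is phosphorylated around DNA breaks and macroH2A carries a large extra domain and is known from silent chromatin.

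Cells of RAW264.7, a mouse macrophage-like tumour line, were given 200 µM 4-thiouridine (4sU). This uridine analogue enters RNA made while it is present and is read as a T-to-C conversion after chemical treatment. From each lysate came 1 library of ribosome footprints, the fragments protected by monosomes, and 1 library of fragmented cytoplasmic RNA, called input. Experiment 2 covered 20, 30 and 40 min of 4sU with 1 lysate each, and experiment 1 covered 0, 20, 40, 60, 90 and 120 min with 1 lysate each. The longer times and the unlabelled control thus exist in experiment 1 alone, and time cannot be fully parted from experiment. No poly(A) selection was used: ribosomal RNA was depleted from both materials, and all lysates were taken in cycloheximide, a translation inhibitor. Nothing in the labels says whether the lysates are separate cultures, so p-values measure the spread between these samples, which may be technical.

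In experiment 2 footprint libraries had 29065324 to 87536081 reads and input libraries 26359243 to 48139330 reads. Experiment 1 was shallower, with 11771175 to 23327760 reads in footprints and 6230562 to 7933796 in input. All 12 macrophage markers checked were counted in every library, with up to 5296 CPM in input, where CPM is a gene's reads scaled to a fixed library total, though Itgam held only 1.76 to 2.90 CPM there. Of 21 markers of other cell types 8 were counted in any library, and the highest, the B cell marker Cd79b, reached 1.25 CPM in input and was counted in all 18 libraries, while 0 of 4 fibroblast markers were seen.

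Both H3.3 genes and both H2A.Z genes are pairs of paralogs, and the sequences below show why their reads can be told apart from each other. They are the first 60 coding bases of each gene, 5′ to 3′, from GENCODE M21 transcripts on build GRCm38, with the bases that differ within a pair in capitals.
H3f3b: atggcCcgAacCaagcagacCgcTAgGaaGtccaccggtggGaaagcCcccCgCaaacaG
H3f3a: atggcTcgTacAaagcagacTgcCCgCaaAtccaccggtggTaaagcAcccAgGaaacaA
H2afv: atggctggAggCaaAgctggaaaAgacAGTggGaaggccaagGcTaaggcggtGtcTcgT
H2afz: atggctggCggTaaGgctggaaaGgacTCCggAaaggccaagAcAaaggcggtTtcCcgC
In each pair 13 of these 60 bases differ. Over the whole coding sequence H3f3b and H3f3a differ at 95 of 411 bases, and at 0 of the 136 residues those bases encode, so both genes make the same H3.3 protein. H2afv and H2afz, which encode the H2A.Z.2 and H2A.Z.1 forms, differ at 81 of 387 coding bases and at 3 of 128 encoded residues. Within either pair 0 stretches of 30 bases, about a footprint's length, are shared.

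Other copies in the genome do share such stretches. H3f3a lies on chromosome 1 (180800832 to 180813943, minus strand) and overlaps Gm17275 and H3f3aos, and 99.5% of its 30-base coding windows also occur in transcripts of other genes, 305 of 382 of them in H3f3c. H3f3b lies on chromosome 11 (116021912 to 116027962, minus strand), and 70.7% of its windows are shared, 194 of 382 with Gm6485. H2afz lies on chromosome 3 (137864487 to 137866922, plus strand), and all 358 of its windows occur in Gm8203. H2afx lies on chromosome 9 (44334694 to 44336077, plus strand), overlaps Gm44335 and shares 30.3% of its windows, 122 of 403, all of them in each of 10 other genes, such as the core H2A gene Hist1h2ab. H2afv on chromosome 11 (6427229 to 6444443, minus strand) and H2afy on chromosome 13 (56073619 to 56136361, minus strand, overlapping Gm47071) share 0% of theirs. How the counting treated reads with several matches, or strand, is not stated in any source used here, so the values of H3f3a, H2afz, H3f3b and H2afx are uncertain by whatever part of their reads was split, dropped or taken from such copies.

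The histone stem-loop, the 3′ mark of replication-dependent histone mRNA, was searched on the sense strand of annotated 3′ untranslated regions and was found in 1 of the 6 genes, H2afx. The same search found it in 36 of 53 replication-dependent core histone genes (67.9%) and in 94 of 21504 protein-coding genes (0.437%). It used 1 fixed pattern of 16 bases. A gene whose annotated 3′ end stops short, or whose element departs from the pattern, counts as without it. These are therefore shares found, and do not show that the remaining genes lack the element. The element of H2afx begins 47 bases after the stop codon and is shown with those of 2 core histone genes, with the stem arms in capitals.
H2afx: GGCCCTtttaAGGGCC
Hist1h2ac: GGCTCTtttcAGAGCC
Hist1h4h: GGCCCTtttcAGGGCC
H2afx is known to make both a short mRNA that ends at this element and a longer polyadenylated mRNA. The counts are given per gene and do not separate these forms, so the label "polyadenylated" holds for H2afx only in part and was not measured for any of the 6 genes.

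The 2 genes for the identical H3.3 protein were labelled very differently. In footprints of experiment 1, 0.184%, 1.59%, 4.34%, 5.13%, 7.80% and 11.02% of H3f3b reads carried a conversion at 0, 20, 40, 60, 90 and 120 min, against 0.283%, 0.343%, 0.790%, 1.56%, 1.78% and 2.13% of H3f3a reads. In input of experiment 1 the shares were 0.126%, 2.81%, 5.47%, 7.50%, 8.25% and 14.2% for H3f3b, against 0.116%, 0.383%, 1.11%, 1.78%, 1.74% and 3.17% for H3f3a. Experiment 2 gave 0.741%, 1.58% and 2.26% in footprints and 1.61%, 3.24% and 3.72% in input at 20, 30 and 40 min for H3f3b, and 0.269%, 0.410% and 0.707% in footprints and 0.402%, 0.833% and 1.40% in input for H3f3a. H3f3b exceeded H3f3a in each of the 16 labelled libraries, and in the unlabelled lysate both lay below 0.3%. At 120 min the 95% Wilson intervals in footprints were 10.4% to 11.7% for H3f3b and 1.92% to 2.38% for H3f3a. Such intervals cover counting error only.

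Within a library the share of H3f3b was 2.76 to 5.49 times that of H3f3a in footprints and 2.66 to 7.34 times in input. No background was subtracted. H3f3a footprints at 20 min of both experiments lay within the counting interval of the unlabelled library, 0.213% to 0.376%. Footprint folds and odds at 20 min, among them the 2.76 of experiment 2, thus set H3f3b against H3f3a reads near background. On the log2 odds scale H3f3b stood above H3f3a by 2.04 ± 0.38 in footprints (SD, n = 8 lysates) and by 2.18 ± 0.41 in input (SD, n = 8 lysates). Both differences were positive in 8 of 8 lysates, and an exact sign-flip test over lysates (two-sided) gave p = 0.00781 for each, which is as small as 8 lysates allow, or 0.0156 adjusted over the 6 pair tests made. The mean number of T positions per read, where a conversion can be seen, was lower in H3f3b, at 5.95 in footprints and 5.78 in input, than in H3f3a, at 6.60 in both. Conversions per T position accordingly differed a little more, 3.27 to 5.94 times in footprints and 2.78 to 7.81 times in input.

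**Figure D1:**
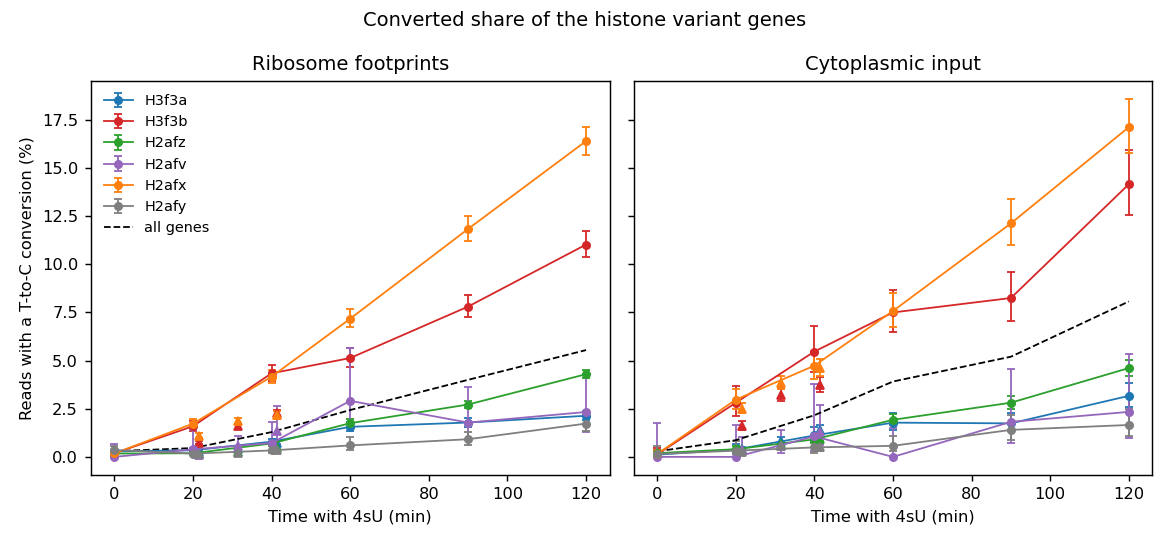
Percentage of reads with at least 1 T-to-C conversion (y axis) against minutes with 4sU (x axis) for the 6 genes, in footprints (left) and input (right). Circles joined by lines are experiment 1, triangles experiment 2 (drawn 1.5 min to the right), bars are 95% Wilson intervals of 1 library each, and the dashed line is the whole library in experiment 1. H2afx and H3f3b run above the dashed line and the other genes below it at 120 min, where the library stood at 5.54% in footprints and 8.07% in input.

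The balance of reads between the H3.3 genes differed between the experiments. Their coding sequences have equal length, so length does not enter this ratio. Copies elsewhere can, since 99.5% of the 30-base windows of H3f3a and 70.7% of those of H3f3b are shared with other genes. How such reads were counted is not stated, so the size of the ratio is uncertain. In footprints the ratio of H3f3b to H3f3a reads was 1.25, 0.915 and 1.47 in experiment 2, against 0.587, 0.674, 0.645, 0.760, 0.629 and 0.565 in experiment 1. In input it was 1.02, 1.03 and 1.00 in experiment 2, against 0.610, 0.568, 0.441, 0.668, 0.605 and 0.522 in experiment 1. Neither material showed an overlap between the experiments. The mean ratio was 1.21 ± 0.28 in experiment 2 (SD, n = 3) and 0.643 ± 0.0694 in experiment 1 (SD, n = 6) in footprints. In input it was 1.02 ± 0.0129 in experiment 2 (SD, n = 3) and 0.569 ± 0.0792 in experiment 1 (SD, n = 6). An exact two-sided permutation test gave p = 0.0119 in each material, the smallest that the 84 regroupings of 9 lysates allow. The comparison was chosen after the values were seen. At 20 and 40 min, which both experiments hold, the footprint ratios were 1.25 and 1.47 in experiment 2 against 0.674 and 0.645 in experiment 1, and the input ratios 1.02 and 1.00 in experiment 2 against 0.568 and 0.441 in experiment 1. Depth and handling of the experiments cannot be told apart.

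**Figure D2:**
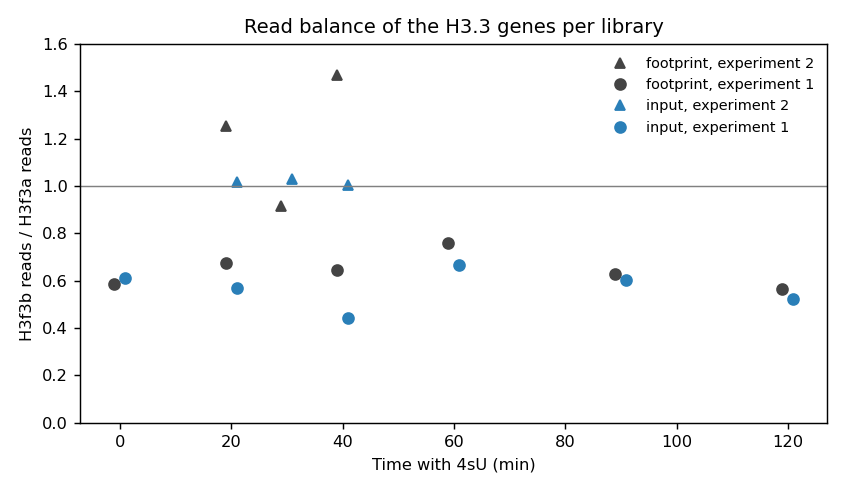
Ratio of H3f3b to H3f3a reads (y axis) in each library against minutes with 4sU (x axis). Triangles are experiment 2 and circles experiment 1, with footprints in dark grey and input in blue. Experiment 2 lies between 0.915 and 1.47, and experiment 1 between 0.441 and 0.760.

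Normalised to library size, footprints of H3f3b held 628, 557 and 831 CPM in experiment 2 and 428, 490, 512, 686, 546 and 566 CPM in experiment 1, against 237, 254 and 281 CPM in input of experiment 2 and 223, 242, 198, 265, 253 and 267 CPM in input of experiment 1. H3f3a footprints held 501, 609 and 565 CPM in experiment 2 and 729, 727, 793, 903, 869 and 1002 CPM in experiment 1, against 232, 246 and 279 CPM in input of experiment 2 and 365, 426, 449, 397, 417 and 513 CPM in input of experiment 1. For both genes every footprint value lay above that of its own input. H3f3a was lower in experiment 2 in both materials with no overlap, while H3f3b overlapped between the experiments in both. How many of all genes show such a gap was not counted, so it cannot be called particular to H3f3a. In bulk libraries such as these, fewer cells expressing a gene and less of its RNA per cell cannot be told apart.

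Ribosome density, the footprint level over the input level, was higher than the all-gene median of -0.04 (log2) for both. By edgeR's quasi-likelihood test with Benjamini-Hochberg adjustment H3f3b was 1.23 higher in footprints on the log2 scale (SE 0.106, adjusted p = 5.0e-08, higher in 9 of 9 lysates) and H3f3a 1.01 higher (SE 0.131, adjusted p = 4.28e-06, 9 of 9 lysates). Among all 10110 genes in this fit 35.8% were higher in footprints and 40.4% were lower, and 5 of the 6 histone variant genes were higher and 0 lower. The density of H3f3b exceeded that of H3f3a by 0.20 ± 0.25 (SD, n = 9 lysates), in 7 of 9 lysates. The exact two-sided sign-flip p was 0.0469 and the adjusted p 0.0703, so a difference in density within the pair was not established. Without the 30 min lysate it was 0.24, with an adjusted p of 0.0352. Leaving out any other single lysate gave 0.15 to 0.23 by the same test, with adjusted p between 0.0586 and 0.141.

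**Figure D3:**
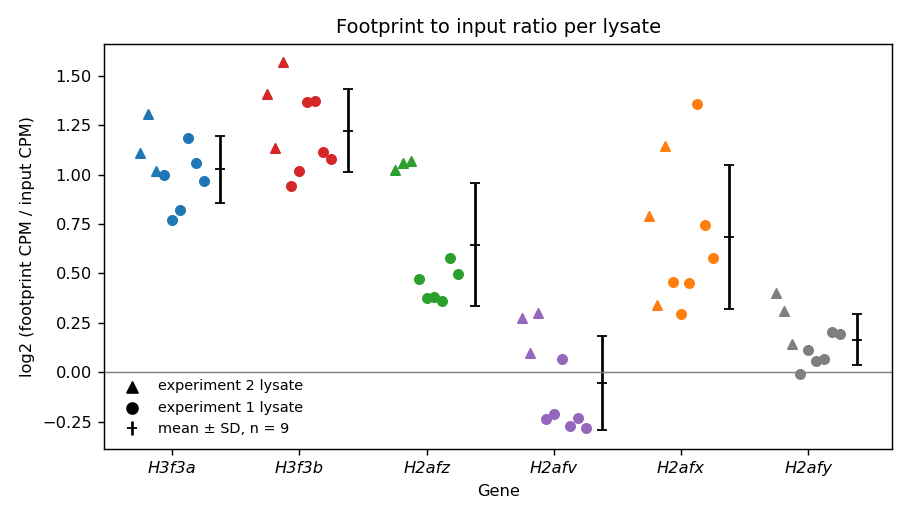
Log2 ratio of normalised footprint to input CPM (y axis) for each gene (x axis) in 9 lysates. Triangles are experiment 2 and circles experiment 1, each in order of time, and the black bar is the mean ± SD of the 9 lysates. H3f3a and H3f3b lie above 0.7 in each lysate, and H2afv spans 0.

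The H2A.Z genes differed in abundance and in density rather than in a labelling difference that could be resolved. H2afz, the main H2A.Z gene by reads, had footprint levels of 1431, 1478 and 1584 CPM in experiment 2 and 1598, 1678, 1836, 1565, 1994 and 2215 CPM in experiment 1. Its input levels were 705, 711 and 754 CPM in experiment 2 and 1152, 1292, 1411, 1216, 1335 and 1571 CPM in experiment 1. Input thus stood lower in experiment 2 with no overlap, whereas footprints overlapped. Here too the share of all genes with such a gap was not counted. H2afv reads amounted to 1.18% to 1.63% of H2afz reads in footprints and 1.90% to 2.65% in input, over coding sequences of equal length. All 358 windows of 30 bases in H2afz, but 0% of those in H2afv, are shared with other genes. The size of these percentages is thus uncertain as well. H2afv levels were 17.5 to 28.6 CPM in footprints (median 25.7) and 15.8 to 34.8 CPM in input (median 29.4).

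H2afz was 0.62 higher in footprints than in input on the log2 scale by edgeR (SE 0.132, adjusted p = 0.000577, 9 of 9 lysates). H2afv did not pass, at -0.06 (SE 0.132, adjusted p = 0.713, higher in 4 of 9 lysates). Within a lysate the density of H2afv lay below that of H2afz by 0.31 to 0.96, with a mean difference of -0.70 ± 0.18 (SD, n = 9 lysates). The difference was negative in 9 of 9 lysates, and the exact sign-flip test gave p = 0.00391, as small as 9 lysates allow, and 0.0156 after adjustment.

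Conversion of H2afz reads was 0.173%, 0.189%, 0.694%, 1.75%, 2.72% and 4.29% in footprints of experiment 1 and 0.195%, 0.399%, 0.909%, 1.93%, 2.81% and 4.61% in its input. In experiment 2 it was 0.154%, 0.244% and 0.487% in footprints and 0.345%, 0.650% and 0.924% in input. The 20 min footprints of both experiments thus lay within the counting interval of the unlabelled library, 0.135% to 0.221%. H2afv had 48 converted reads in all labelled footprint libraries together and 25 in input, so its shares are poorly resolved. Its share at 120 min was 2.33% in footprints (95% Wilson interval 1.27% to 4.24%) and 2.34% in input (1.00% to 5.35%). Input at 20 and 60 min of experiment 1 held 0 converted H2afv reads of 226 and of 250, which allows shares of up to 1.33% and 1.20% (3 counts of the total). The unlabelled libraries held 0 of 592 in footprints and 0 of 217 in input, which allows up to 0.507% and 1.38%.

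H2afv exceeded H2afz by 0.46 ± 0.92 in footprints on the log2 odds scale (SD, n = 8 lysates, positive in 5 of 8, exact sign-flip p = 0.195, adjusted p = 0.234). In input the difference was -0.53 ± 1.26 (SD, n = 8 lysates, positive in 3 of 8, exact p = 0.281, which adjustment left at 0.281). With a pseudocount of 2 in place of 0.5 the footprint difference was 0.85 (positive in 6 of 8, exact p = 0.0547, adjusted p = 0.0656), and the input difference turned to 0.27. One input library with 0 converted H2afv reads gave -3.30 with the lower pseudocount. No order of labelling could be read for this pair at this depth.

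**Figure D4:**
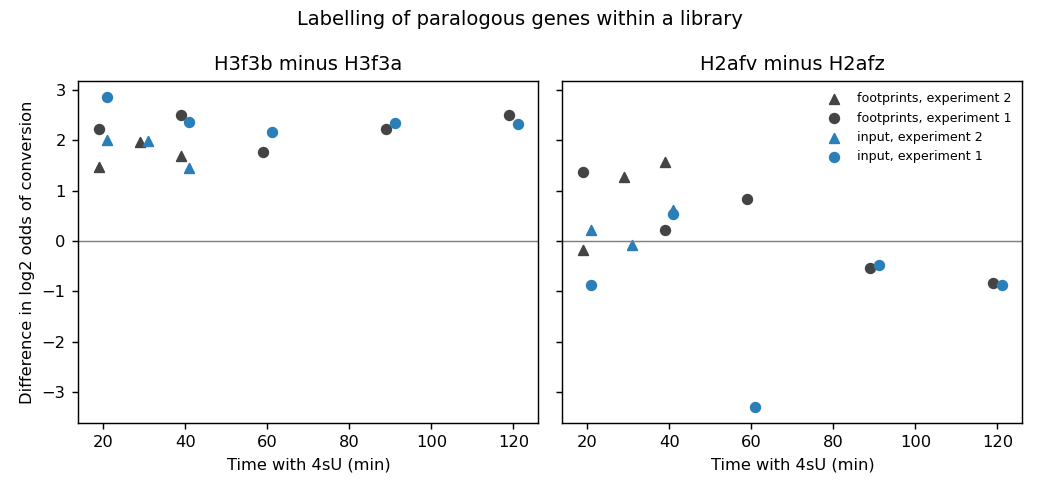
Difference in log2 odds of conversion (y axis) against minutes with 4sU (x axis), for H3f3b minus H3f3a (left) and H2afv minus H2afz (right). Triangles are experiment 2 and circles experiment 1, with footprints in dark grey and input in blue. All 16 points of the H3.3 pair lie above 1.4, and those of the H2A.Z pair lie on both sides of 0.

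H2afx, the gene of the DNA damage sensor H2A.X, was the most converted of the 6 genes at 120 min. Its shares in experiment 1 were 0.176%, 1.73%, 4.16%, 7.17%, 11.8% and 16.4% in footprints and 0.150%, 2.97%, 4.73%, 7.57%, 12.1% and 17.1% in input. In experiment 2 they were 1.09%, 1.86% and 2.17% in footprints and 2.51%, 3.85% and 4.61% in input. Its reads held fewer T positions than those of the typical gene, 4.45 against a median of 6.62 in footprints and 4.33 against 6.52 in input. Counted per T position, H2afx also exceeded the library at 120 min, with 4.41 conversions per 100 T in footprints and 5.35 in input, against 1.09 and 1.69 in all reads of the same libraries.

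H2afx levels in footprints were 469, 375 and 610 CPM in experiment 2 and 646, 677, 651, 1043, 657 and 659 CPM in experiment 1. Input held 271, 296 and 276 CPM in experiment 2 and 471, 553, 476, 407, 392 and 442 CPM in experiment 1. Footprints exceeded input in 9 of 9 lysates, by 0.66 on the log2 scale (SE 0.151, edgeR adjusted p = 0.00101). The log2 ratio ranged from 0.29 to 1.36, the top value being the 60 min lysate, and its SD of 0.37 over 9 lysates was the largest of the 6 genes.

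H2afy, the gene of macroH2A1, was the least converted gene at 120 min in both materials. Its shares in experiment 1 were 0.357%, 0.171%, 0.335%, 0.596%, 0.917% and 1.73% in footprints and 0.152%, 0.322%, 0.492%, 0.574%, 1.40% and 1.66% in input. In experiment 2 they were 0.151%, 0.189% and 0.366% in footprints and 0.274%, 0.576% and 0.494% in input. Footprints at 20, 30 and 40 min thus stood near or below the 0.357% of the unlabelled footprint library, whose counting interval was 0.216% to 0.587%. Footprint levels were 169 to 246 CPM (median 185) and input levels 140 to 216 CPM (median 174). The difference between footprints and input was small, 0.16 on the log2 scale (SE 0.0599, edgeR adjusted p = 0.0213, higher in 8 of 9 lysates). It no longer passed without the 20 min or the 30 min lysate of experiment 2 (0.13 and 0.14, adjusted p = 0.0666 and 0.0538) or in experiment 1 alone (0.10, adjusted p = 0.147).

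Set against the typical mRNA, the 5 genes that could be tested fell on both sides. Relative labelling is a gene's log2 odds of conversion less the median gene's in that library, averaged over 8 labelled lysates and tested against 0 by limma with Benjamini-Hochberg adjustment. In footprints 32.5% of 6778 genes were above the median and 32.6% below, and in input 35.2% of 7045 genes were above and 35.2% below. Of the 5 histone variant genes with enough converted reads, 2 were above and 2 below in footprints, and 2 above and 3 below in input. H2afv fell under the minimum of 50 converted reads in both materials.

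H2afx stood 1.78 above the median in footprints (SE 0.175, adjusted p = 7.5e-06) and 1.43 above in input (SE 0.183, adjusted p = 2.64e-05). H3f3b stood 1.45 above in footprints (SE 0.211, adjusted p = 0.000154) and 1.17 above in input (SE 0.185, adjusted p = 0.000129). Both genes were above the median in all 8 lysates of both materials. The distance was not even over time. H3f3b stood 2.09 above at 20 min and 0.62 above at 120 min in footprints of experiment 1, and 2.03 and 0.54 above at these times in input.

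H2afz stood at -0.76 in footprints (SE 0.142, adjusted p = 0.000859) and -1.03 in input (SE 0.137, adjusted p = 3.5e-05), below the median in all 8 lysates of both materials. H2afy stood at -1.53 in footprints (SE 0.228, adjusted p = 0.000186) and -1.84 in input (SE 0.229, adjusted p = 2.09e-05), where only 1.19% of genes were lower. H3f3a was below the median in input (-1.01, SE 0.193, adjusted p = 0.000526, 8 of 8 lysates). In footprints H3f3a did not pass (-0.59, SE 0.247, adjusted p = 0.0547). Its footprint value was -0.15 in experiment 2 alone (adjusted p = 0.567) and -0.98 in experiment 1 alone (adjusted p = 0.0188), and with experiment as a replicate block the adjusted p was 0.0274. Each single experiment took the median of its own genes, 2975 in experiment 2 and 6040 in experiment 1. Against the median of all 6778 genes, H3f3a stood at 0.15, 0.05 and -0.15 at 20, 30 and 40 min in experiment 2. In experiment 1 it went from -0.14 at 20 min to -1.89 at 120 min, so time and experiment are mixed here. No background was subtracted, and the weakly labelled genes lay near background early. With the unlabelled share taken off, the 60, 90 and 120 min lysates alone gave -2.87 in footprints and -2.69 in input for H2afy. H3f3a gave -1.44 in footprints. Without subtraction these lysates stood at -2.07, -2.41 and -2.19 in footprints and -2.82, -2.05 and -2.73 in input for H2afy. For H3f3a they stood at -0.71, -1.46 and -1.89 in footprints. The values thus differ from the 8-lysate means in subset as well as in subtraction.

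**Figure D5:**
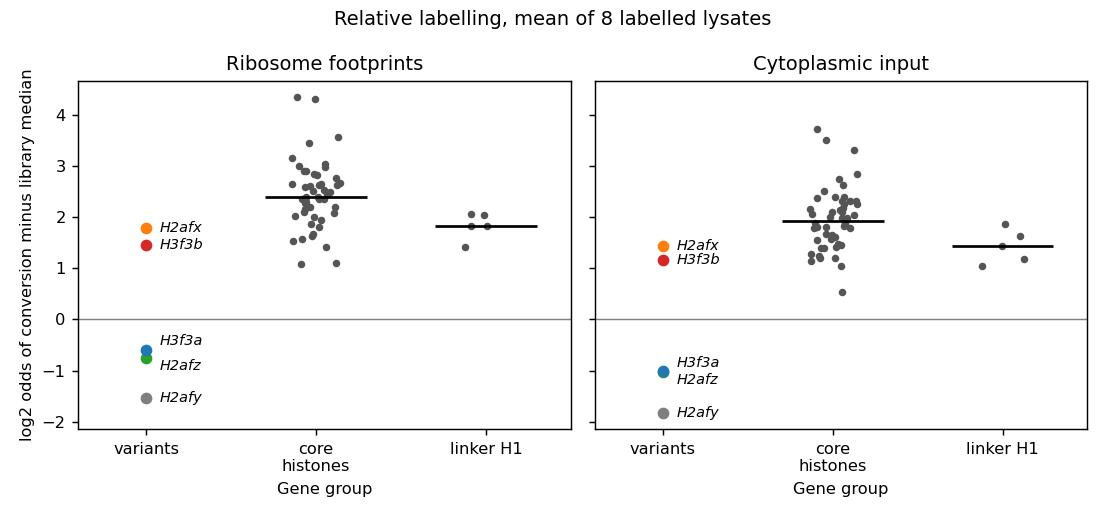
Relative labelling (y axis, log2 odds of conversion above or below the median gene, mean of 8 labelled lysates) for 5 histone variant genes, replication-dependent core histones and linker H1 histones (x axis), in footprints (left) and input (right). Each point is a gene and black lines are group medians. H2afx and H3f3b lie within the range of the core histones, and H3f3a, H2afz and H2afy lie below 0 and below every core histone gene.

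The replication-dependent core histones, the S-phase counterparts of these genes, had a median relative labelling of 2.40 in footprints and 1.93 in input. Beside 32.5% and 35.2% of all genes, 49 of 49 tested core genes were above the median in footprints and 50 of 50 in input. In input their lowest value was 0.55 and their highest 3.71, and Hist2h2ab (2.74), Hist1h2ad (2.62), Hist1h2bf (2.85) and Hist1h4n (3.31) had the smallest adjusted p. Linker H1 histones, which bind the DNA between nucleosomes, were above in 5 of 5 cases in input (median 1.43), with Hist1h1b at 1.87, Hist1h1a at 1.63, Hist1h1d at 1.43 and Hist1h1e at 1.19. These lists overlap in sequence with each other and, for core H2A genes, with H2afx. Of the other variant histones 6 of 12 were counted in any library and 3 were tested. Of these H1f0, a replication-independent linker histone, was above in input (0.99), Cenpa, the centromeric H3, below (-0.42), and H2afj did not pass (-0.21).

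Conversion was lower in footprints than in input for 5 of the 6 genes. By edgeR's quasi-likelihood test 59.4% of 8276 genes were lower in footprints and 0.145% higher, so most genes of the table share this direction. The log2 odds ratios were -0.64 for H3f3b (SE 0.194, adjusted p = 0.0035), -0.51 for H3f3a (SE 0.199, adjusted p = 0.0203), -0.64 for H2afz (SE 0.178, adjusted p = 0.00126), -0.57 for H2afx (SE 0.189, adjusted p = 0.00674) and -0.61 for H2afy (SE 0.263, adjusted p = 0.0368). All 5 lay nearer 0 than the all-gene median of -0.79, with 64.7% (H2afz) to 76.6% (H3f3a) of the tested genes below them. No background was subtracted here, and whether their gap is smaller than that of the typical gene was not tested. H2afv stood at 0.22 (SE 0.473, adjusted p = 0.668), on few converted reads.

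The gap between materials was wider in experiment 2. There the values ran from -1.17 for H2afz to -0.88 for H3f3a and 5 of 5 testable genes passed, beside 83% of all 6260 genes lower and an all-gene median of -1.33. In experiment 1 alone they ran from -0.44 for H3f3b to -0.22 for H2afx, beside a median of -0.45, and 1 of 5 passed, H3f3b (adjusted p = 0.0225), where 27.3% of 7305 genes were lower. Whether the experiments differ in this ratio was not tested, and experiment 2 holds only times up to 40 min. With limma on paired log2 odds H3f3a (-0.51, adjusted p = 0.0671) and H2afx (-0.58, adjusted p = 0.0573) no longer passed at about the same size. Without the 40 min lysate of experiment 2 H3f3a gave -0.44 (adjusted p = 0.0886), and H2afy ended between 0.0509 and 0.167 without any one of 5 lysates, those of 20 and 40 min in experiment 1 and of 20, 30 and 40 min in experiment 2.

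Ribosome density of the H2A.Z genes differed between the experiments. The log2 ratio of H2afz was 1.05 ± 0.0256 in experiment 2 (SD, n = 3) and 0.44 ± 0.0858 in experiment 1 (SD, n = 6), and its 3 values of experiment 2 all lay above the 6 of experiment 1. That of H2afv was 0.23 ± 0.11 in experiment 2 (SD, n = 3) and -0.19 ± 0.13 in experiment 1 (SD, n = 6), also with no overlap. By edgeR's product of material and experiment, chosen after the data were seen, 13% of 10110 genes were higher and 12.7% lower in experiment 2, and 2 of the 6 genes were higher and 0 lower. The difference was 0.61 for H2afz (SE 0.0893, adjusted p = 0.00168) and 0.42 for H2afv (SE 0.119, adjusted p = 0.0208). H3f3b (0.23, adjusted p = 0.264), H3f3a (0.18, adjusted p = 0.252), H2afy (0.18, adjusted p = 0.159) and H2afx (0.12, adjusted p = 0.712) did not pass.

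Among the 20 and 40 min lysates alone, where both experiments have a lysate, 8.22% of 10308 genes were higher and 14.5% lower, and 1 of 6 genes passed. That was H2afz, at 0.58 (adjusted p = 0.00905). H2afv gave 0.28 (adjusted p = 0.272) and H2afx 0.52 (adjusted p = 0.0681). H2afv also no longer passed without the 20 or the 120 min lysate of experiment 1 or without the 20 or the 40 min lysate of experiment 2, with adjusted p between 0.0523 and 0.1203. In experiment 1 alone, where 41.5% of 9774 genes were lower in footprints than in input, H2afv was among them (-0.20, edgeR adjusted p = 0.0333), and in experiment 2 alone it stood at 0.22 (adjusted p = 0.0934).

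Few of the 6 levels were called as changing with time in 4sU. In footprints 7.13% of 9664 genes increased with hours of 4sU and 14.2% decreased by edgeR, and 2 of the 6 genes increased, H2afz by 0.25 per hour (log2, SE 0.0689, adjusted p = 0.0253) and H2afy by 0.21 per hour (SE 0.0601, adjusted p = 0.0296). Neither passed without the 90 min or the 120 min lysate (H2afz 0.23 and 0.21, adjusted p = 0.0843 and 0.388; H2afy 0.21 and 0.14, adjusted p = 0.0853 and 0.480), nor in experiment 1 alone (0.17 each, adjusted p = 0.0877 for H2afz and 0.0563 for H2afy). H2afz also missed it without the 20 min lysate of experiment 2 (adjusted p = 0.0526), and H2afy without that of experiment 1 (adjusted p = 0.0545). H3f3a stood at 0.33 per hour (adjusted p = 0.0579) and passed with experiment as a replicate block (0.22, adjusted p = 0.0243). It also passed in experiment 1 alone (0.18, adjusted p = 0.0487) and by DESeq2's Wald test (0.33, adjusted p = 0.0404). With single lysates left out its edgeR adjusted p ran from 0.0288 to 0.400. The other slopes were 0.17 for H2afx (0.10 to 0.34 with single lysates left out), 0.13 for H2afv (0.07 to 0.21) and 0.07 for H3f3b (-0.05 to 0.24).

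In input 0.475% of 9269 genes increased and 6.51% decreased, and 0 of the 6 genes passed by edgeR or by DESeq2's Wald test, with 1 (H2afy) at an unadjusted p under 0.05. Slopes there ran from 0.01 per hour for H2afx to 0.33 for H2afz. With experiment as a replicate block 1540 genes passed in input, against 647 without it, and 0 of the 6. The slope of H2afz was then 0.17 per hour against 0.33 without the block, that of H3f3a 0.18 against 0.32 and that of H2afx -0.14 against 0.01. For the ratio of footprints to input edgeR called 0.000% of 10110 genes as moving with time, with 241 genes at an unadjusted p under 0.05. DESeq2's Wald test called 9. The edgeR SE ran from 0.11 per hour for H2afy to 0.28 for H2afx among the 6 genes, so modest slopes could go uncalled. None of the 6 genes passed by either tool, and their values ran from -0.14 per hour for H2afv (-0.25 to -0.10 with single lysates left out) to 0.17 for H2afx (0.10 to 0.43).

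Per kilobase of coding sequence the 6 genes spanned a wide range of levels. In footprints H2afz stood at 4415 ± 668 CPM per kb, H3f3a at 1811 ± 403, H2afx at 1489 ± 422, H3f3b at 1418 ± 291, H2afy at 172 ± 21.2 and H2afv at 62.4 ± 10.1 CPM per kb (SD, n = 9 each). In input H2afz stood at 2914 ± 841 CPM per kb, H2afx at 922 ± 230, H3f3a at 899 ± 236, H3f3b at 599.9 ± 61.2, H2afy at 154 ± 21.5 and H2afv at 66.6 ± 18.7 CPM per kb (SD, n = 9 each). Neighbours in this order were compared by exact two-sided sign-flip tests over 9 lysates, 10 in all. The order came from the same values, which set the pairs and their direction, so these p describe spread and are not independent support. H2afx and H3f3b in footprints (exact p = 0.762, adjusted p = 0.762) and H2afx and H3f3a in input (exact p = 0.535, adjusted p = 0.595) did not differ beyond their spread. The other 8 neighbours had adjusted p between 0.00651 and 0.0391 over all 9 lysates. For H3f3a over H3f3b in input this pools the experiments, since H3f3a was the higher in 6 of 9 lysates and H3f3b in the 3 of experiment 2. Coding length was used because the T content of a gene's reads followed that of its coding sequence (r = 0.899 over 7345 genes in footprints and 0.930 over 7193 genes in input) more closely than that of its whole transcript (0.581 and 0.583), as a description across genes.

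Genes that handle these histones were described from lists written from general knowledge. Of 33 histone chaperones, remodellers and related factors 17 had a higher and 9 a lower density, beside 35.8% higher and 40.4% lower over all genes. Their median was 0.26 beside -0.04 over all genes. Ubn1, a subunit of the HIRA complex that deposits H3.3, stood at -1.60, Znhit1, of the SRCAP complex that inserts H2A.Z, at 1.05, the H2A-H2B chaperone Nap1l1 at 1.701 and Anp32e, which removes H2A.Z, at 2.23. In relative labelling of input 9 of 30 were above and 16 below (median -0.47), beside 35.2% above and 35.2% below over all genes. Hjurp, the chaperone of the centromeric H3, stood at 1.87, Spty2d1, an H3-H4 chaperone, at 2.32, Asf1a, which hands H3-H4 to other chaperones, at 1.53 and Ssrp1, of the FACT complex, at -1.19.

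Of 16 tested genes that act on or read H2A.X after DNA damage, 3 had a higher and 7 a lower density (median -0.16), beside 35.8% higher and 40.4% lower over all genes. The kinases Atr (-1.09) and Atm (-0.94), which phosphorylate H2A.X, the ubiquitin ligase Rnf168 (-1.32) and Brca1 (-0.92) were lower. The 3 higher genes, named after their values were seen, were the scaffold Mdc1, which binds phosphorylated H2A.X (1.65), the phosphatase Eya3 (0.66) and the nuclease Mre11a (0.17). In relative labelling of input 4 of 14 were above and 5 below (median -0.26), beside 35.2% above and 35.2% below over all genes. Ppm1d, a phosphatase of the damage response, stood at 2.57 and Rnf168 at 1.94, and Atm at -1.10 and Atr at -0.80.

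Of 13 genes of histone mRNA 3′ processing 4 had a higher and 5 a lower density (median 0.03), beside 35.8% and 40.4% over all genes. Casp8ap2 (FLASH) stood at -2.52, Npat, the activator of clustered histone genes, at -1.21, the scaffold Sympk at -0.76 and the endonuclease Cpsf3 at 0.60. In relative labelling of input 8 of 12 were above and 3 below (median 0.99), beside 35.2% above and 35.2% below over all genes. Clp1 stood at 3.15, Cstf2t at 1.93, Casp8ap2 at 1.79 and Sympk at -1.91. For density the replication-dependent core histones had 38 of 50 genes higher and 1 lower (median 1.12), beside 35.8% and 40.4% over all genes. Among them Hist1h2bc stood at 2.57, Hist2h4 at 2.27, Hist1h2bk at 1.83 and Hist1h4n at 4.29. Linker H1 genes were higher in 4 of 5 cases (median 0.67), with Hist1h1b at 0.86, Hist1h1e at 0.67, Hist1h1d at 0.83 and Hist1h1c at 0.59. Of the other variants H1f0 was higher (0.72), and Cenpa (0.15) and H2afj (-0.03) did not pass. The median of the 6 histone variant genes was 0.64.

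The genes most alike in level were sought among the 8836 genes that averaged 100 or more reads a library, by Pearson's r of log2 normalised CPM over 18 libraries after the mean of each material was taken off. These r are descriptions, and the libraries share experiment, depth and time. The nearest to H3f3a were Atp5l (0.978), Atp5j2 (0.974) and Tmem14c (0.973), and to H3f3b Unc45a (0.918), Cars (0.915) and Commd4 (0.892). The nearest to H2afz were Fam162a (0.983), Uqcc2 (0.981) and Ndufb9 (0.980), and to H2afv Cxcl16 (0.948), Nmral1 (0.948) and Smco4 (0.947). H2afx was nearest to Hist1h4h (0.963), one of the stem-loop core histone genes shown above, then to Tcf3 (0.947) and Trim28 (0.934), and H2afy to Rpl13 (0.960), Erp29 (0.957) and Pes1 (0.955). The H3.3 genes shared none of their 3 nearest genes, nor did the H2A.Z genes.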

How the data were processed

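The deposited files hold counts, the authors' raw reads per gene and library, split by T positions in a read (0 to 20) and T-to-C conversions (0 to 3). This meaning was taken from the column headings, and 0 reads fell where conversions would exceed T positions. Per the submitters' processing notes, alignment used Bowtie 0.12.8 and build mm10. Of the counting program, annotation and counted region nothing is stated in the sources used here. The authors split none of the files by transcript form, and their spike-in was not used here.

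All 18 libraries were used and grouped by material, minutes of 4sU and experiment as titled. Levels, slopes and densities were fitted to total counts with edgeR 4.0.16 (R 4.3.3, TMM scaling, quasi-likelihood test, time as a factor for density and hours as a number for slopes). Conversion in footprints against input was fitted with edgeR's design for methylation counts over labelled libraries. Relative labelling used limma 3.58.1. Both conversion analyses needed a mean of 50 reads per library and 50 converted reads, with a pseudocount of 0.5 in log odds. Fits and Benjamini-Hochberg adjustment ran over all genes that passed the filter, and an adjusted p below 0.05 was called. The fits were tested on simulated data with true changes of 1 on the log2 scale (per hour for slopes). Of these, 61.5% were recovered for density between experiments and 74.9% for conversion in footprints against input. In the other fits 83.7% to 100% were recovered. A gene that did not pass may therefore still differ. Pairs of paralogs were compared by exact sign-flip tests over lysates, adjusted over 6 tests. Shares have 95% Wilson intervals. Coordinates, coding sequences and stem-loops come from GENCODE M21 (GRCm38).

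The 6 genes, the lists and the tests were chosen with earlier results of these data known. Every one of the 6 was named throughout. From each list up to 4 genes past the call with the smallest adjusted p were named in density and in relative labelling of input, Cenpa, H2afj, Mdc1, Eya3 and Mre11a were added after their values were seen, and for each of the 6 the 3 most alike genes. Per the labels' protocols input and footprints of a lysate were taken from the same cells. With material means removed, such partners correlated at r = 0.113 to 0.674, and for 3 of 9 lysates the own partner was the closest. Alternatives were DESeq2 1.42.0 size factors and Wald test, no filter, a mean of 200 reads, limma for conversion, conversions per T position, at least 2 conversions, a pseudocount of 2, subtraction of the unlabelled share, replicate blocks by experiment or lysate, single experiments and each lysate left out. Experiment 2 alone and the comparison of densities between experiments were chosen after the data were seen. So were the comparisons of H3.3 read balance and of neighbours in level.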

Additional observations from a re-analysis of the deposited data

Results flagged for a closer look

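The footprint to input ratio of H2afz was 0.61 higher in experiment 2 than in experiment 1 on the log2 scale, by edgeR's product of material and experiment (adjusted p = 0.00168). It drew attention because the same contrast gave different values in the 2 experiments. Leaving out single lysates gave 0.55 to 0.63, and among the 20 and 40 min lysates alone, times that both experiments hold, it was 0.58 (adjusted p = 0.00905). The ratio of H2afv was 0.42 higher in experiment 2 by the same test (adjusted p = 0.0208), and 0.33 to 0.48 with single lysates left out. It no longer passed without any one of 4 lysates (adjusted p = 0.0523 to 0.1203) or among the 20 and 40 min lysates alone (0.28, adjusted p = 0.272). The input level of H2afz was 705 to 754 CPM in experiment 2, against 1152 to 1571 CPM in experiment 1, while that of H2afv was 15.8 to 17.5 CPM against 26.8 to 34.8 CPM. Experiment 2 was also more deeply sequenced, and the part of depth in the differences was not tested.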

How the results depend on the processing

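Most values kept their direction and their side of the threshold under the alternatives tried. Genes called for the input slope numbered 1309 with DESeq2's Wald test and 1540 with experiment as a replicate block, against 647. The histone variant genes called for the footprint slope were 0 with no filter, against 2 (H2afz and H2afy). In experiment 1 alone neither of these was called, and 1 other was, H3f3a (0.18, edgeR adjusted p = 0.0487). For the ratio against time 9 genes passed with DESeq2's Wald test, 3 with experiment and 1 with lysate as a replicate block and 3 in experiment 1 alone, against 0. The densities that differed between experiments numbered 1 of 6 among 20 and 40 min lysates, against 2. Conversion in footprints against input gave 2021 genes in experiment 1 alone, against 4924, and called 1 of the 5 genes tested there (H3f3b) and, with limma, 3 of 6 (not H3f3a and H2afx), against 5 of 6. Genes called for relative labelling in experiment 2 alone were 1510 in footprints, against 4410, and 3031 in input, against 4961. In experiment 1 alone H3f3b exceeded H3f3a by 2.24 in footprints and 2.41 in input and the density of H2afv minus H2afz was -0.64, each with an exact adjusted p of 0.125 and an unadjusted p at the smallest its 5 or 6 lysates allow (0.0625 or 0.0312). H2afv minus H2afz in input turned to 0.27 with a pseudocount of 2 and 0.25 in experiment 2 alone.

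Directions turned only among values that had not passed: H2afv density to 0.0079 with DESeq2's size factors, 0.0044 with its Wald test and 0.22 in experiment 2 alone, the H2afx input slope to -0.14 with experiment as a replicate block and -0.14 in experiment 1 alone. In experiment 1 alone the footprint slope also turned to -0.018 for H2afv and -0.022 for H2afx, and the ratio against time to 0.054 for H3f3b and 0.058 for H2afz. With lysate as a replicate block the density of H3f3b was 1.22, and no call among the 6 densities changed. The cause was not tested for any of these.

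With each lysate left out in turn, genes called ranged from 0 to 838 for the input slope (0 to 1 of the 6), from 67 to 2602 for the footprint slope (0 to 3 of the 6), from 0 to 6 for the ratio against time and from 408 to 2986 for the densities of the experiments (1 to 2 of the 6), and 3 to 5 of the 6 passed in conversion. The H3f3b minus H3f3a density ranged from 0.15 to 0.24. Both signs occurred for H2afv density (-0.10 to 0.029), the H2afx input slope (-0.12 to 0.10), the H3f3b footprint slope (-0.051 to 0.24), the ratio against time of H3f3a (-0.021 to 0.076), H3f3b (-0.12 to 0.11) and H2afy (-0.032 to 0.067), the H2afx difference between experiments (-0.080 to 0.33) and H2afv conversion (-0.14 to 0.38). Most times have 1 lysate, and depth limits H2afv, with 188 to 865 reads per input library.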
